A study of Homo sapiens with 8 samples.

Results

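The transcripts described here are those of 9 genes for transcription factors of the early neural plate and head: SIX6, SIX3, LHX1, LHX4, LHX2, OTX2, ZIC2, PAX6 and PAX7. They were taken by symbol from the 27317 symbols counted in 8 RNA sequencing libraries, and they were selected on their measured levels across the 4 groups, so those levels are given as a description. The cells were of MEL1, an established human embryonic stem cell (ESC) line. The study compared cells that had received TCDD at 2 nM as ESCs (tetrachlorodibenzodioxin, a dioxin that activates the aryl hydrocarbon receptor, AHR) with cells given an equal volume of DMSO, the solvent that all groups received. The groups were TCDD at D1 and DMSO at D1, both sampled just before differentiation, and TCDD at D2 and DMSO at D2, both sampled after 2 days in a cardiac differentiation medium with the GSK3 inhibitor CHIR99021 at 5 µM. Each group had 2 libraries of this single line. The sources used here give neither the length of the exposure nor whether replicates were separate cultures, so the p-values below measure only the spread between these libraries, which may be technical.

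SIX3, SIX6, OTX2 and the PAX and LHX proteins among them have a homeodomain, which binds DNA. ZIC2 is a zinc-finger protein and has no homeodomain, so the 9 genes are not all homeobox genes. SIX3 and SIX6 act in the forebrain and eye, LHX2 and PAX6 in the eye and cortex, LHX4 in the pituitary and motor neurons, and PAX7 in the dorsal neural tube, the neural crest and muscle. LHX1 is also known from the anterior primitive streak of the mouse embryo, and OTX2 and ZIC2 are expressed in pluripotent cells before any neural tissue forms. LHX proteins work with LDB adaptors, which LMO proteins compete for, and SIX3, SIX6 and their paralogs work with EYA and DACH cofactors.

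The promoters of SIX6 and LHX4 are printed because SIX6 had the largest difference between TCDD and DMSO at D1 and LHX4 the largest at D2. Each runs from 250 bases before to 50 bases after a listed start site, on the plus strand, from RefSeq on GRCh38.p14, at chr14:60508896-60509195 for SIX6 and chr1:180230014-180230313 for LHX4. The start site of SIX6 is the first base of the annotated gene, and the only one listed for LHX4 lies 1889 bases inside its annotated gene. Capitals mark GCGTG, the core of the element that AHR binds with its partner ARNT, in either orientation (CACGC on the printed strand), and CTTTGAT, a core of the element that TCF and LEF factors of the Wnt pathway bind.

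SIX6: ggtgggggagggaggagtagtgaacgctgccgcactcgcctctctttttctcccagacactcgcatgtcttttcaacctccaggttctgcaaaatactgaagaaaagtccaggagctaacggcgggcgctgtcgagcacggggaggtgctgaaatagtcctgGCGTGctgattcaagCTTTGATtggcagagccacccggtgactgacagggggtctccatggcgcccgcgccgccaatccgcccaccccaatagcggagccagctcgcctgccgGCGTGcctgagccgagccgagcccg

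LHX4: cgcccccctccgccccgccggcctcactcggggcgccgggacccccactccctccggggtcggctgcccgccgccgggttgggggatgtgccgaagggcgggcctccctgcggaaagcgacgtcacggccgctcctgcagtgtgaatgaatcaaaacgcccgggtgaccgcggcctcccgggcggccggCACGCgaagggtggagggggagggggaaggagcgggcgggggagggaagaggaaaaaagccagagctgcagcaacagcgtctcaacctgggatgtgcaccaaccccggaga

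The SIX6 window held GCGTG at 2 places and CTTTGAT at 1. The LHX4 window held GCGTG at 1 place, on the opposite strand, and no CTTTGAT. The longer form TNGCGTG, which contains GCGTG, was found once in each window, at a place already in capitals. Of 35116 promoters of the same length, searched on both strands, 36.5% held GCGTG, 5.51% TNGCGTG and 2.62% CTTTGAT. The promoter set used held windows for 7 of the 9 genes. It held none for SIX3 and LHX1, so their promoters were not searched. Among the other matched genes, ZIC2 held GCGTG at 2 places, PAX6, which has several listed starts, held GCGTG in some of its windows, and PAX7, LHX2 and OTX2 held none of the 3 motifs. PAX6 also held TNGCGTG, at 1 place. These are matches of letters and not measured binding sites.

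Library totals ran from 34873055 to 43770420 counts. Levels are edgeR's CPM, which sets each gene's count against the TMM-scaled library total. CYP1A1, the standard AHR target, averaged 89.4 ± 16.5 CPM with TCDD at D1 and 0.787 ± 0.0373 CPM with DMSO at D1 (SD, n = 2 each), and 2.19 ± 0.529 CPM with TCDD at D2 and 0.378 ± 0.122 CPM with DMSO at D2. The pluripotency gene POU5F1 averaged 449.8 to 515.7 CPM in the 4 groups, and T (brachyury), a primitive streak gene, averaged 48.6 CPM with TCDD at D2, 90.5 CPM with DMSO at D2 and under 1 CPM in both D1 groups. Genes used as neural markers were spread over a wide range. The neural plate gene SOX1 had 1 to 10 counts in a library, and the proneural genes NEUROG2 and NEUROD1 had 0 to 3 and 0 to 13. STMN2, ELAVL4 and SNAP25 stayed under 1 CPM in all libraries. TUBB3 had 60.8 to 95.6 CPM, INA 48.4 to 52.8, SYT1 32.4 to 40.7, GAP43 12.6 to 21.9, DCX 5.91 to 8.39, ELAVL3 1.67 to 6.69 and the forebrain gene HESX1 2.66 to 8.37 CPM. The 11 neuron markers reported here summed to 174.8 to 213.8 CPM. Of the 8 tested neuron markers, edgeR and DESeq2 called 0 between TCDD and DMSO at either time, with 0 at an unadjusted p under 0.05 at D1 and 1 (TUBB3) at D2. Of all genes, edgeR called 1.2% between TCDD and DMSO at D1 and 2.95% at D2. The neural roles named above are background. In bulk RNA, fewer cells with a transcript and less of it per cell cannot be told apart.

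**Figure D1:**
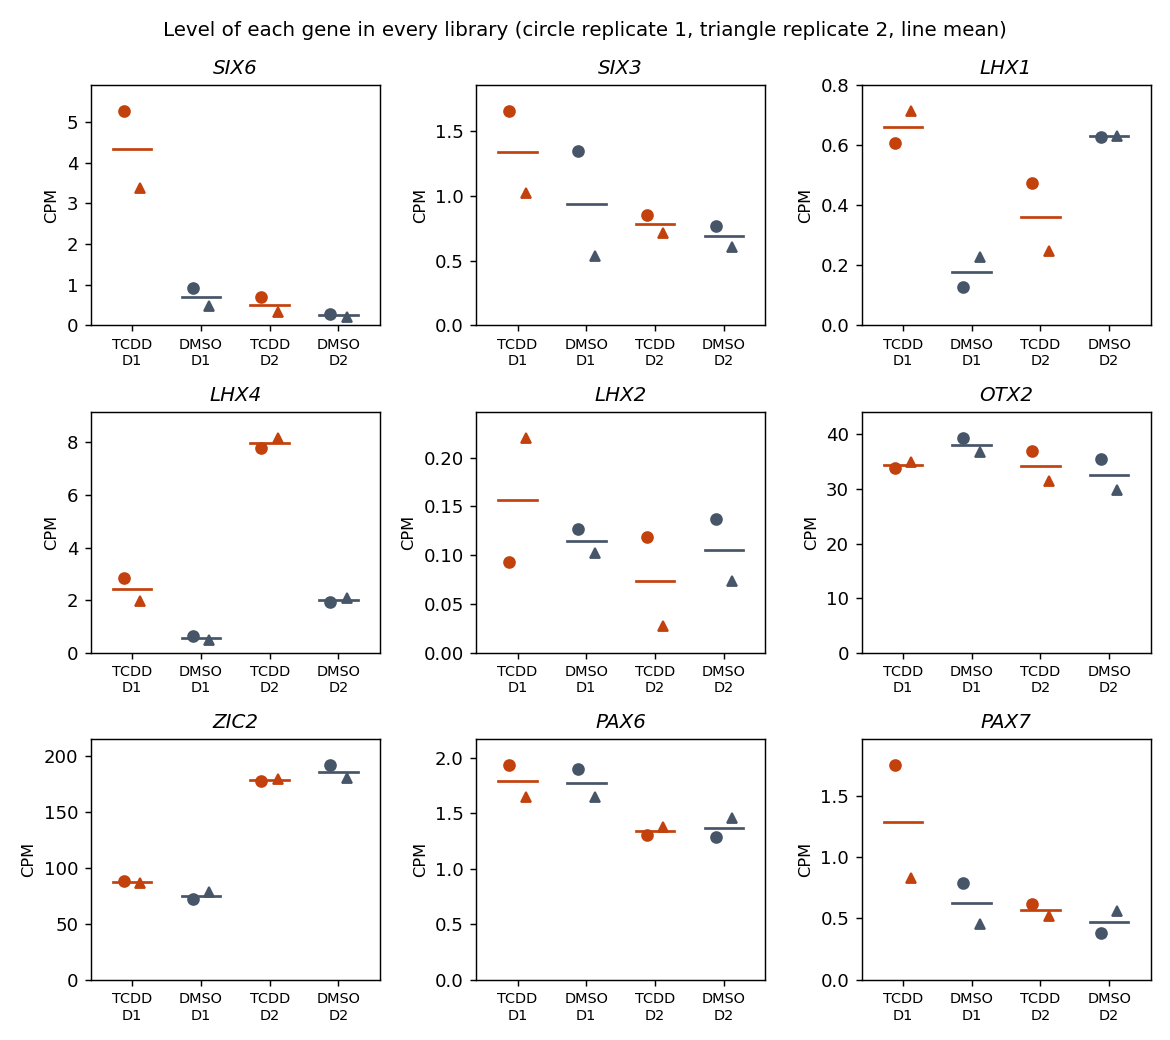
CPM of the 9 genes (y axis, linear from 0) in each library of the 4 groups (x axis), with circles for replicate 1, triangles for replicate 2 and lines for the means. SIX6 stands highest in the TCDD D1 libraries (5.27 and 3.39 CPM) and LHX4 in the TCDD D2 libraries (7.79 and 8.17 CPM).

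SIX6, a retinal and pituitary factor, had 5.27 and 3.39 CPM in the TCDD D1 libraries, against 0.913 and 0.483 CPM in the DMSO D1 libraries. The lowest TCDD library stood above the highest DMSO library, and the log2 fold change was 2.64 ± 0.27 (SE), or 6.24-fold. At D2 it had 0.688 and 0.330 CPM with TCDD, against 0.273 and 0.219 CPM with DMSO, a log2 fold change of 1.08 ± 0.53. The D2 groups did not overlap, but they rest on 29 and 12 counts with TCDD and 10 and 9 counts with DMSO. From counting error alone, the D2 ratio had a 95% interval of 1.21 to 3.90, and without TCDD D2 replicate 1 its log2 value was 0.43. SIX6 was the gene of the 9 with the widest range, 17.6-fold between its highest mean, TCDD at D1, and its lowest, DMSO at D2.

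SIX3, the forebrain paralog of SIX6, had 1.66 and 1.02 CPM with TCDD at D1, against 1.34 and 0.534 CPM with DMSO at D1. These groups overlapped, and the log2 fold change was 0.53 ± 0.32. It was 0.01 without DMSO D1 replicate 2 and 1.34 without DMSO D1 replicate 1, so a single library set its size. At D2, SIX3 had 0.855 and 0.715 CPM with TCDD and 0.765 and 0.608 CPM with DMSO, again overlapping (0.21 ± 0.38).

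LHX4, a LIM homeodomain factor of pituitary and motor neuron development, had 2.85 and 1.98 CPM with TCDD at D1, against 0.634 and 0.483 CPM with DMSO at D1. It had 7.79 and 8.17 CPM with TCDD at D2, against 1.91 and 2.07 CPM with DMSO at D2. The groups stood apart at both times, by log2 fold changes of 2.12 ± 0.24 at D1 and 2.00 ± 0.15 at D2, or 4.35-fold and 3.99-fold. The D2 effect of TCDD less its D1 effect was -0.12 ± 0.29 on the log2 scale. Of the 9 genes, LHX4 was the only one with both a TCDD difference above 2-fold at both times and group levels that were higher at D2 than at D1.

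LHX1, a LIM homeodomain factor of the anterior streak, head and kidney, had 26 counts in each TCDD D1 library, 0.607 and 0.716 CPM, against 5 and 9 counts in the DMSO D1 libraries, 0.127 and 0.229 CPM. At D2 it had 0.475 and 0.248 CPM with TCDD, against 0.628 and 0.633 CPM with DMSO. TCDD libraries were thus above DMSO libraries at D1 (log2 fold change 1.87 ± 0.40) and below them at D2 (-0.77 ± 0.35), with no overlap at either time. The D2 effect of TCDD less its D1 effect was -2.64 ± 0.54. Counting error alone gave the D1 ratio a 95% interval of 2.02 to 7.22 and the D2 ratio one of 0.357 to 0.947. Without TCDD D2 replicate 2 the D2 log2 fold change was -0.40, and without replicate 1 it was -1.34.

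LHX2 had 1 to 8 counts in a library and did not pass the filter on low counts. Its CPM was 0.0933 and 0.220 with TCDD and 0.127 and 0.102 with DMSO at D1, and 0.119 and 0.0275 with TCDD and 0.137 and 0.0730 with DMSO at D2. The groups overlapped at both times, and a difference was not detectable at this depth.

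OTX2, a head organiser factor that primed pluripotent cells also express, had 33.9 and 34.9 CPM with TCDD at D1, against 39.4 and 36.7 CPM with DMSO at D1. The TCDD libraries were both below the DMSO libraries, with a log2 fold change of -0.15 ± 0.08. At D2 it had 37.0 and 31.5 CPM with TCDD and 35.5 and 29.8 CPM with DMSO, which overlapped (0.07 ± 0.08).

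ZIC2, in which loss of function causes holoprosencephaly, was the most abundant of the 9. It had 88.1 and 86.8 CPM with TCDD at D1, against 71.7 and 78.3 CPM with DMSO at D1, a log2 fold change of 0.22 ± 0.05 with no overlap. At D2 it had 177.3 and 178.9 CPM with TCDD, against 191.6 and 179.7 CPM with DMSO. These did not overlap either, with TCDD lower by less than 1 CPM between the nearest libraries (-0.06 ± 0.05).

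PAX6, the eye-field factor used as an early marker of human neuroectoderm, had 1.94 and 1.65 CPM with TCDD at D1 and 1.902 and 1.65 CPM with DMSO at D1. At D2 it had 1.31 and 1.38 CPM with TCDD and 1.28 and 1.46 CPM with DMSO. TCDD and DMSO libraries overlapped at both times, and the log2 fold changes were 0.02 ± 0.18 and -0.04 ± 0.20. By counting error, the ratio lay between 0.799 and 1.29 at D1 and between 0.735 and 1.28 at D2.

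PAX7 had 1.75 and 0.826 CPM with TCDD at D1, against 0.786 and 0.458 CPM with DMSO at D1, a log2 fold change of 1.08 ± 0.33 between groups that did not overlap. It was 0.41 without TCDD D1 replicate 1 and 1.52 without DMSO D1 replicate 1. At D2, PAX7 had 0.617 and 0.523 CPM with TCDD and 0.382 and 0.560 CPM with DMSO, which overlapped (0.27 ± 0.42).

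At D1, replicate 1 was above replicate 2 with both TCDD and DMSO for SIX6, SIX3, LHX4, PAX6 and PAX7. For LHX1 it was below replicate 2 in both groups, and for LHX2, OTX2 and ZIC2 the groups differed in direction. The ratio of replicate 1 to replicate 2 for SIX6 was 1.56 with TCDD and 1.89 with DMSO, and for SIX3 it was 1.63 and 2.52. Over all tested genes, with each group taken alone, replicate 1 was the higher in 52.4% with TCDD at D1 and in 52.0% with DMSO at D1. The share of genes higher in both groups was not measured. Whether the same number marks a shared culture or day is not given.

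**Figure D2:**
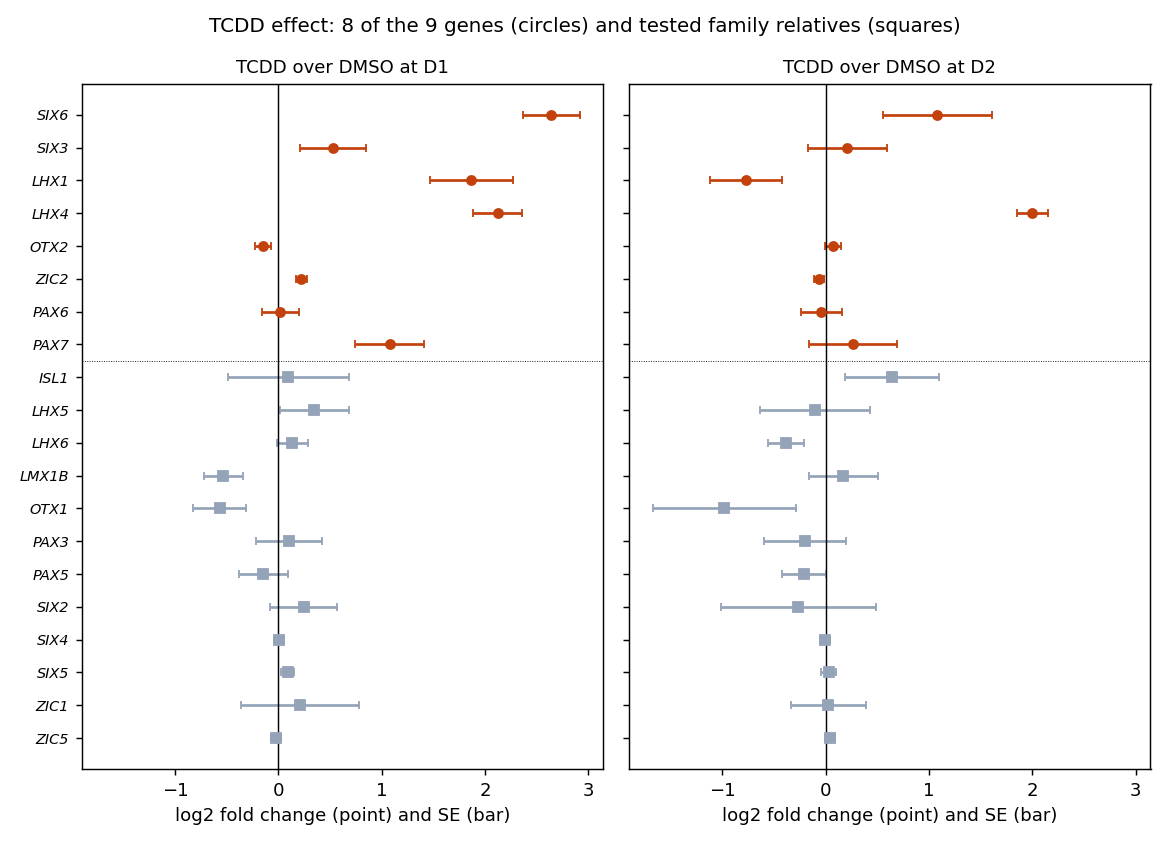
Log2 fold change of TCDD over DMSO (x axis, points, with SE bars) at D1 (left) and D2 (right) for 8 of the 9 genes (circles, LHX2 being too low) and 12 tested relatives (squares). SIX6, LHX4 and LHX1 lie furthest to the right at D1, LHX4 at D2, and LHX1 crosses 0 to -0.77 at D2.

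A gene was called different when its Benjamini-Hochberg adjusted p in edgeR's quasi-likelihood test over 17268 genes was under 0.05. Because the 9 genes were picked with these contrasts in view, their calls are given as a description. With TCDD at D1, 4 of the 8 tested genes were called higher (SIX6, LHX1, LHX4 and ZIC2), where 1.2% of all genes were called, 0.764% higher and 0.434% lower. The groups' libraries did not overlap for 6 of the 8, where this held for 37.5% of all genes. When each library was omitted in turn, SIX6 and LHX4 were called in 8 of 8 fits, LHX1 in 4 and ZIC2 in 1. LHX1 lost its call without any one of the 4 D1 libraries (log2 fold change 1.51 to 2.34) and under DESeq2, ZIC2 kept it without DMSO D1 replicate 2 and was at 0.16 without DMSO D1 replicate 1, and PAX7 gained one without TCDD D1 replicate 2 (1.49). At D2, LHX4 alone was called, higher, where 2.95% of all genes were called, 1.41% higher and 1.54% lower. The libraries did not overlap for 4 of the 8, against 47.7% of all genes, with SIX6 and LHX4 higher and LHX1 and ZIC2 lower with TCDD. For the difference of these effects, D2 less D1, LHX1 alone was called, lower, where 0.77% of all genes were called, 0.492% higher and 0.278% lower, and it was called in 3 of 8 fits with a library omitted and not by DESeq2. The median log2 fold change of the 8 was 0.80 at D1 and 0.14 at D2, where that of all genes was 0.00 at both times. The TCDD effects at the 2 times share no library, whereas the differences between D2 and D1 share libraries with them.

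**Figure D3:**
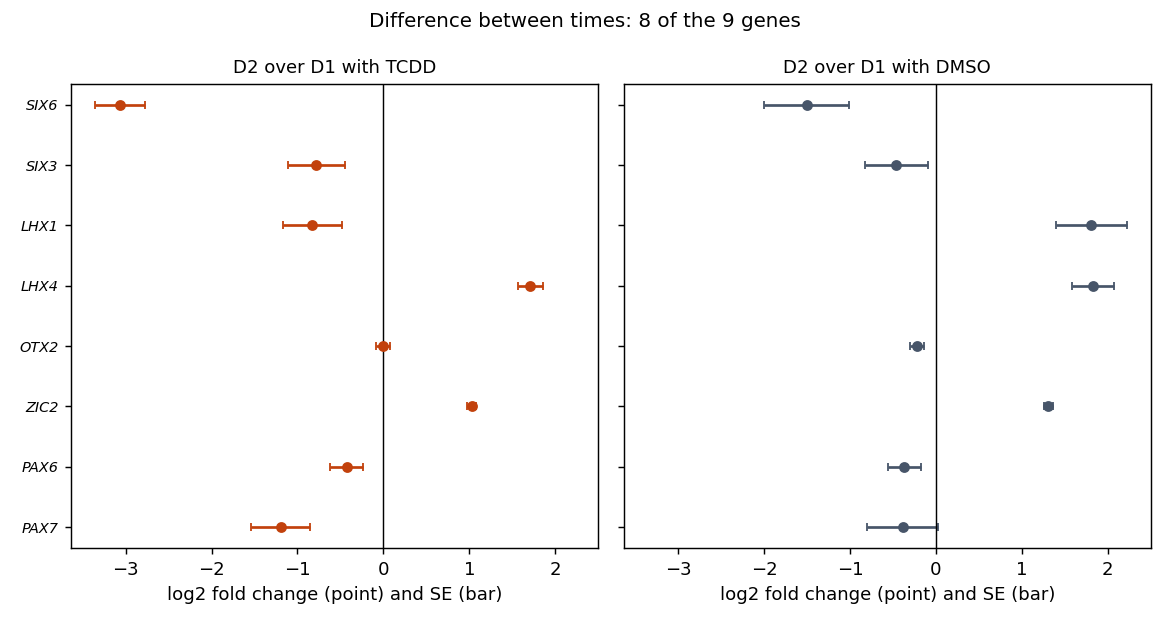
Log2 fold change of D2 over D1 (x axis, points, with SE bars) with TCDD (left) and with DMSO (right) for 8 of the 9 genes. LHX4 and ZIC2 lie above 0 in both panels and SIX6 below 0 in both, while LHX1 lies at -0.83 with TCDD and at 1.81 with DMSO.

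Between D2 and D1 the 9 genes took different courses. LHX4 was higher at D2 than at D1, by log2 fold changes of 1.71 ± 0.14 with TCDD and 1.83 ± 0.25 with DMSO, and ZIC2 was higher by 1.03 ± 0.05 with TCDD and 1.31 ± 0.05 with DMSO. SIX6 was lower at D2, with log2 fold changes of -3.06 ± 0.29 with TCDD and -1.50 ± 0.50 with DMSO, and the TCDD value was -3.71 without TCDD D2 replicate 1. LHX1 was lower at D2 with TCDD (-0.83 ± 0.34) and higher at D2 with DMSO (1.81 ± 0.41). Of the remaining genes, PAX7 differed by -1.20 ± 0.34 with TCDD and -0.38 ± 0.41 with DMSO, SIX3 by -0.78 ± 0.33 with TCDD and -0.46 ± 0.37 with DMSO, and PAX6 by -0.43 ± 0.19 with TCDD and -0.37 ± 0.19 with DMSO. Without DMSO D1 replicate 1 the DMSO values of SIX3 and PAX7 were 0.36 and 0.06, on the other side of 0. OTX2 stood at 0.00 ± 0.08 with TCDD and at -0.22 ± 0.08 with DMSO, where D2 libraries were both below D1 libraries.

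With TCDD, 2 of the 8 tested genes were called higher at D2 (LHX4 and ZIC2) and 4 lower (SIX6, SIX3, LHX1 and PAX7), where 65.3% of all genes were called, 33.1% higher and 32.2% lower. With DMSO, 3 were called higher (LHX1, LHX4 and ZIC2) and 2 lower (SIX6 and OTX2), where 63.2% of all genes were called, 32.5% higher and 30.7% lower. Libraries of D2 and D1 did not overlap for 7 of the 8 with TCDD, against 81.4% of all genes, and for 6 of the 8 with DMSO, against 82.5%. Without composition scaling the calls over all genes split into 4183 higher and 6996 lower with TCDD, against 5709 and 5560 with it, and into 4381 higher and 6419 lower with DMSO, against 5617 and 5296. With TCDD and a library omitted, SIX3 and LHX1 were each called in 3 of 8 fits and PAX7 in 7. SIX3 kept its call without either DMSO D1 library or TCDD D1 replicate 2, and LHX1 without either DMSO D1 library or TCDD D2 replicate 1. Without TCDD D1 replicate 1, SIX3 differed by -0.36 and PAX7 by -0.52, and without TCDD D2 replicate 2, LHX1 differed by -0.47. In the same contrast with no library omitted, DESeq2 called neither SIX3 (-0.77 ± 0.44) nor LHX1 (-0.86 ± 0.56). An edgeR fit with a robust dispersion prior did not call SIX3 (-0.78 ± 0.34). With DMSO, SIX6 and OTX2 were called in 6 of 8, with log2 values of -0.97 and -0.17 without DMSO D1 replicate 1 and of -1.34 and -0.10 without DMSO D2 replicate 2.

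Levels of different genes were compared per kilobase of exon, using merged GENCODE exon lengths on another build than the authors' hg19, so the order is approximate. ZIC2 and OTX2 led in every group, at 29.3 and 10.6 CPM per kb with TCDD at D1 and 25.1 and 11.7 with DMSO at D1. They stood at 59.7 and 10.5 CPM per kb with TCDD at D2 and at 62.2 and 10.04 with DMSO at D2. The next in order was SIX6 with TCDD at D1 (1.55 ± 0.479 CPM per kb), SIX3 with DMSO at D1 (0.372 ± 0.227) and LHX4 with TCDD at D2 (1.37 ± 0.0469) and with DMSO at D2 (0.342 ± 0.0191). SIX3 and SIX6 with DMSO at D1 (0.2504 ± 0.109 CPM per kb for SIX6) did not differ beyond their spread. LHX2 was last in every group, at 0.0614 CPM per kb or less.

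Of 24 relatives from the same families that are reported here, 12 could be tested, and the other 12 had at most 12 counts in any library. At D1 edgeR and DESeq2 called 0 of them, with 2 at an unadjusted p under 0.05 (LMX1B and OTX1, at -0.53 ± 0.19 and -0.57 ± 0.26), and the median log2 fold change was 0.09. At D2 edgeR and DESeq2 again called 0, with 1 at an unadjusted p under 0.05 (LHX6, at -0.38 ± 0.18), and the median was -0.05. ZIC5, which lies beside ZIC2, differed by -0.02 ± 0.05 at D1 and by 0.04 ± 0.05 at D2. At D2 against D1 with DMSO, 3 relatives were called higher (ZIC1, ZIC5 and PAX5) and 6 lower. Of all genes, 32.5% were called higher and 30.7% lower there. The hindbrain and limb factor LMX1B fell by 2.39 ± 0.24 on the log2 scale (edgeR adjusted p = 1.17e-07), and OTX1 fell by 2.91 ± 0.37 (1.98e-06), where its paralog OTX2 had -0.22 ± 0.08. SIX5 fell by 0.69 ± 0.07 (9.86e-08) and SIX4 by 0.35 ± 0.05 (4.94e-06).

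Of 29 neural plate and forebrain genes, 19 could be tested. At D1, 2 were called higher with TCDD and 2 lower, with a list median of -0.03. Of all genes, 0.764% were called higher and 0.434% lower. SOX21, a SOXB2 repressor of neural progenitors, rose with 8.38 and 11.4 CPM with TCDD, against 2.56 and 3.25 CPM with DMSO (log2 fold change 1.76 ± 0.15, edgeR adjusted p = 1.86e-06). The N-cadherin gene CDH2 fell, with 23.5 and 24.1 CPM with TCDD against 33.4 and 31.3 CPM with DMSO (-0.45 ± 0.07, 0.00115). SFRP2, a secreted Wnt antagonist, rose by 0.27 ± 0.05 (edgeR adjusted p = 0.0148) and the intermediate filament gene NES fell by 0.21 ± 0.05 (0.0320). The call of SFRP2 was lost without DMSO D1 replicate 2 or without TCDD D1 replicate 1 (log2 fold change 0.18 to 0.21). That of NES was lost in 6 of 8 fits that left out a library, all but those without TCDD D1 replicate 2 or TCDD D2 replicate 1, where its log2 fold change lay between -0.15 and -0.23. At D2, SOX21 rose again (2.48 ± 0.25, edgeR adjusted p = 5.51e-06), as did SOX2 (0.59 ± 0.05, 8.47e-07), and CDH2 fell (-0.63 ± 0.06, 1.79e-06). The list median at D2 was 0.10, and 1.41% of all genes were called higher and 1.54% lower. With DMSO at D1, before differentiation, SOX2 averaged 335.2 CPM, NES 622.3 CPM and SFRP2 992.1 CPM, while SOX1 had 1 to 10 counts in any library. Calls on this list therefore do not by themselves show a neural response. At D2 against D1 with DMSO, 6 of the 19 were called higher and 10 lower, where 32.5% of all genes were called higher and 30.7% lower. CDH2 rose by 1.77 ± 0.06 and the hindbrain organiser gene GBX2 by 2.07 ± 0.13, whereas NES fell by 0.91 ± 0.05 and SFRP2 by 0.71 ± 0.05 (edgeR adjusted p of 3.25e-09 or less for each).

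All 22 genes for partner proteins of these factor families could be tested, and 1 was called at each time with TCDD. It was LMO3, whose product competes with LHX proteins for LDB adaptors. LMO3 had 7.09 and 5.56 CPM with TCDD at D1, against 3.17 and 2.24 CPM with DMSO at D1, a difference of 1.23 ± 0.16 on the log2 scale (edgeR adjusted p = 0.000167). At D2 it had 3.68 and 3.66 CPM with TCDD, against 1.69 and 1.85 CPM with DMSO (1.05 ± 0.19, edgeR adjusted p = 0.00247). LMO3 was above DMSO in both TCDD libraries at both times, and at D2 its adjusted p was 0.0509 without DMSO D2 replicate 1. The list median was -0.07 at D1 and 0.09 at D2. Of all genes, 1.2% were called at D1 and 2.95% at D2. At D2 against D1 with DMSO, 7 of the 22 were called higher and 11 lower, where 32.5% of all genes were called higher and 30.7% lower. The adaptor LDB2 rose by 0.85 ± 0.05 and the coactivator gene EYA1 by 1.897 ± 0.117, whereas the corepressor TLE2 fell by 2.69 ± 0.11 and LMO4 by 0.81 ± 0.05 (edgeR adjusted p of 2.03e-10 or less for each).

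LHX1 and OTX2 also act in the anterior streak and its organiser, of whose 18 listed genes 17 could be tested. At D1, 3 were called lower with TCDD, where 0.434% of all genes were called lower. The Nodal inhibitor LEFTY1 fell, with 2.22 and 2.17 CPM with TCDD against 6.92 and 4.09 CPM with DMSO (-1.32 ± 0.19, edgeR adjusted p = 0.000572). LEFTY2 (-0.62 ± 0.13, 0.0254) and CER1 (-1.45 ± 0.34, 0.0389) fell as well. Without DMSO D1 replicate 1 the adjusted p was 0.483 for LEFTY2 and 0.807 for CER1, and without TCDD D1 replicate 1 it was 0.158 for LEFTY2. The call of CER1 was lost in 7 of 8 such fits, all but that without DMSO D1 replicate 2. At D2, 8 were called lower with TCDD and 1 higher, with a list median of -0.43. Of all genes, 1.54% were called lower and 1.41% higher. MIXL1 fell, with 119.5 and 137.1 CPM with TCDD against 308.2 and 285.7 CPM with DMSO (-1.21 ± 0.06, edgeR adjusted p = 5.37e-10). EOMES (-0.86 ± 0.05, 1.55e-08), LEFTY1 (-1.10 ± 0.11, 3.70e-06) and GDF3 (-0.83 ± 0.08, 5.71e-06) fell too. At D2, LHX1 at -0.77 ± 0.35, which was not called, stood on the same side of 0 as these genes. OTX2 at 0.07 ± 0.08 stood on the other. MIXL1, EOMES, LEFTY1 and GDF3 were named for the smallest p, and 8 of the 17 listed genes were not called. With TCDD and DMSO at D2, FOXH1 averaged 166.6 and 133.1 CPM, FZD8 6.90 and 5.45 CPM, and HHEX 8.43 and 8.37 CPM. The summed level of the 8 primitive streak markers was 506.2 to 575.7 CPM with TCDD at D2. With DMSO at D2 it was 836.6 to 863.4 CPM, and none of the 8 was at 0. The sum includes MIXL1 and EOMES, already given above. Of the 8 markers, 5 were called lower with TCDD at D2 and 3 were not called. SP5 averaged 215.0 CPM with TCDD and 199.6 CPM with DMSO at D2, and MESP1 averaged 1.32 and 1.04 CPM. The part of this sum in the difference of LHX1 was not tested. At D2 against D1 with DMSO, 13 of the 17 were called higher and 3 lower, where 32.5% of all genes were called higher and 30.7% lower. The EOMES log2 fold change was 10.26 ± 0.13 and that of NODAL 4.32 ± 0.07 (edgeR adjusted p of 1.84e-18 or less for both).

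The sources used here give no strand setting for the counting, so reads from overlapping genes cannot be told apart, and the levels of SIX6, SIX3, LHX4 and PAX6 carry that uncertainty. In RefSeq, C14orf39 overlaps SIX6. It had 5.37 and 5.26 CPM with TCDD at D1, against 4.34 and 4.63 CPM with DMSO at D1, a log2 fold change of 0.25 ± 0.12 where SIX6 had 2.64 ± 0.27. LHX4-AS1 and ACBD6 overlap LHX4. LHX4-AS1 differed by 0.39 ± 0.17 at D1 and by -0.35 ± 0.14 at D2, and ACBD6 by 0.09 ± 0.05 and 0.15 ± 0.04, where LHX4 differed by 2.12 ± 0.24 and 2.00 ± 0.15. SIX3-AS1, which overlaps SIX3, had 7 and 3 counts with TCDD at D1, against 1 and 0 with DMSO at D1, and 1 to 3 counts at D2. PAX6 is overlapped by PAX6-AS1, which had 0 counts in every library under its older symbol, and by ELP4, which differed by 0.02 ± 0.06 at D1 and 0.08 ± 0.06 at D2. Between TCDD and DMSO, edgeR and DESeq2 called 0 of the 4 tested genes (C14orf39, LHX4-AS1, ACBD6 and ELP4) at either time. At each time, 2 of the 4 had an unadjusted edgeR p under 0.05. Of all genes, edgeR called 1.2% at D1 and 2.95% at D2. Between D2 and D1, C14orf39 fell by 0.93 ± 0.13 with TCDD and by 0.67 ± 0.13 with DMSO, and LHX4-AS1 rose by 0.45 ± 0.15 with TCDD and by 1.20 ± 0.16 with DMSO (edgeR adjusted p of 0.0155 or less for each). These lay on the same side of 0 as SIX6 and LHX4. ACBD6 rose by 0.14 ± 0.04 with TCDD (edgeR adjusted p = 0.00899) and differed by 0.08 ± 0.05 with DMSO.

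**Figure D4:**
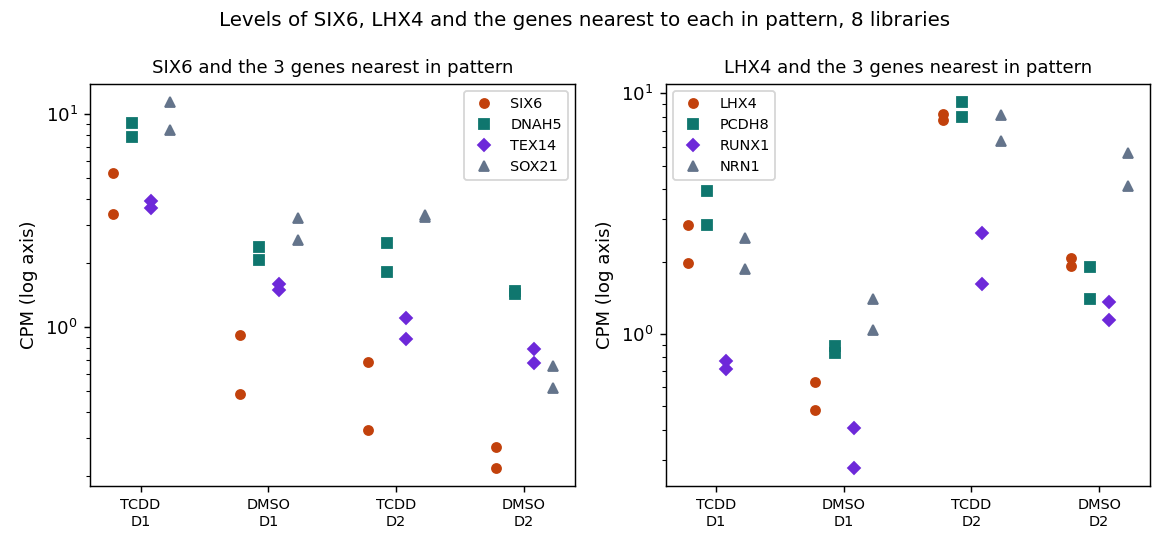
CPM (log axis) of SIX6 (left) and LHX4 (right) with the 3 genes nearest to each in pattern, 2 libraries for each of the 4 groups on the x axis. DNAH5 (9.08 and 7.76 CPM) is highest with TCDD at D1, as SIX6 is. PCDH8 (7.98 and 9.22 CPM) is highest with TCDD at D2, as LHX4 is.

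For the 4 genes that averaged 1 CPM or more in a group and at least a 2-fold range of group means, the genes with the nearest pattern were sought among 13721 candidates. The measure was the root mean square difference of centred log2 CPM over the 8 libraries, where 0 is an identical pattern. The nearest to SIX6 were DNAH5 (0.56), TEX14 (0.73) and SOX21 (0.81), beside a spread of SIX6 itself of 1.48. DNAH5, a dynein heavy chain of cilia, averaged 8.42 ± 0.928 CPM with TCDD at D1 and 2.22 ± 0.229 CPM with DMSO at D1. The nearest to LHX4 were the protocadherin PCDH8 (0.37), the blood transcription factor RUNX1 (0.64) and NRN1 (0.66), beside a spread of 1.33. PCDH8 had 3.92 and 2.84 CPM with TCDD and 0.837 and 0.890 CPM with DMSO at D1, and 7.98 and 9.22 CPM with TCDD and 1.39 and 1.898 CPM with DMSO at D2. The nearest to ZIC2 were PDSS1 (0.07), TMEM123 (0.07) and LDHA (0.09), beside a spread of 0.59. The nearest to PAX7 were PTGDS (0.30), MMP17 (0.31) and TMEM266 (0.33), beside a spread of 0.60. The points share library, depth and scaling.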

How the data were processed

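The deposited tables held the authors' raw read counts per gene symbol, 1 table per library. The submitters' processing notes name cutadapt 1.9.1, STAR, featureCounts 1.5.1 and the hg19 build. The sources used here do not give the annotation, the strand setting or the handling of multi-mapping reads. The 9 genes and all related lists were chosen with earlier results of these data known. Some genes of the related lists are not reported here, and list counts leave them out.

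Of 27317 symbols, 4199 had no count, and edgeR's filterByExpr kept 17268. Library totals of 34873055 to 43770420 were scaled by TMM factors of 0.958 to 1.04. All 8 libraries entered 1 fit with a mean per group (edgeR 4.0.16, quasi-likelihood F test, two-sided, Benjamini-Hochberg adjustment over all genes, R 4.3.3, common biological coefficient of variation 3.86%). The SE was derived from the F statistic. Replicates of a group differed by more than sampling noise (chi-square per gene 3.21 to 6.59). Each library counted as a sample, though this spread does not show whether replicates were separate cultures. Exact 95% intervals of count ratios cover counting error only. The fit was tested on simulated data. Levels per kb and neighbours used GENCODE and RefSeq annotation of GRCh38 by symbol.

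Beyond the 9 genes, up to 4 called genes with the smallest p of each related list, a few check genes and the nearest patterns were named. SOX1, HESX1, the neuron markers, the overlapping and neighbouring genes and the other members of small counts were named after their values were seen. Alternatives were DESeq2 1.42.0, other scalings, no filter, fewer libraries, a replicate block, leaving out each library and, chosen after seeing the data, a robust dispersion prior and a crossed replicate block.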

Additional observations from a re-analysis of the deposited data

Results flagged for a closer look

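The TCDD effect differed between D2 and D1 for 7 of 58 tested genes of the text that were checked. This used the test of the difference itself over all 17268 genes, where 0.77% were called. Many of the 58 were named for calls or patterns in these data, so the count is a description. LHX1, one of the 9 genes, had a difference of -2.64 on the log2 scale, with effects of -0.77 at D2 and 1.87 at D1, and because it was chosen with this contrast in view its value is a description. CYP1A1 had a difference of -4.27 (edgeR adjusted p = 0.00125), with effects of 2.56 at D2 and 6.82 at D1. DNAH5, named for its likeness to SIX6, had one of -1.35, with effects of 0.57 at D2 and 1.93 at D1, likewise a description. For the related genes the difference was 0.747 for SOX2 (edgeR adjusted p = 1.58e-05), -0.825 for GDF3 (0.0110), -1.10 for MIXL1 (0.0281) and 0.318 for NES (0.0307). These related genes were named for a TCDD call at D1 or D2, so their values are a description too. SOX2 had a TCDD effect of 0.59 at D2 and of -0.16 at D1.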

How the results depend on the processing

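For the 8 tested genes, 575 of 592 log2 fold changes under other settings kept their sign, and 555 moved by less than the gene's own replicate SD. All 254 of those called in the main fit kept their direction, and 216 stayed called. The settings reuse the same 8 libraries, and a noisier gene has a wider SD, so these totals do not measure reproducibility. No low-count filter gave 505 calls with TCDD at D1 against 207, 908 at D2 against 509, and 468 against 133 for the difference of effects, with 3 of the 9 genes there and 5 streak genes at D1. Fitting only the libraries compared gave 114 calls at D1, with 2 neural plate genes and 1 streak gene there, and 5 neural plate genes and 2 partners at D2. DESeq2 called 0 of the 9 genes for the difference of effects. Without composition scaling the median of all genes at D2 against D1 with TCDD was -0.11.

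Leaving out each library in turn gave 80 to 265 calls at D1 (80 without DMSO D1 replicate 1), 198 to 648 at D2 (198 without DMSO D2 replicate 1), 9139 to 11248 for D2 against D1 with DMSO, 9746 to 11289 with TCDD and 29 to 275 for the difference (29 without DMSO D2 replicate 1). Of the 9 genes, 2 to 3 were called at D1, 1 at D2, 3 to 6 for D2 against D1 with DMSO, 3 to 6 with TCDD, and 0 to 1 for the difference. Relatives called were 0 at D1, 0 at D2 and 7 to 9 for D2 against D1 with DMSO; neural plate genes 2 to 5, 3 to 5 and 15 to 16; partners 1, 0 to 2 and 15 to 18; streak genes 1 to 3, 9 and 15 to 16.

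Replicate numbers are shared by the groups, but the labels do not say that they pair. Deviations of same-numbered libraries correlated at -0.10 to 0.11 across genes, and the replicate block gave 225 calls at D1 and 515 at D2, 10901 and 11234 for D2 against D1 with DMSO and TCDD and 159 for the difference; ZIC2 at D1 was not called. With the numbers of the TCDD D2 libraries crossed, D2 against D1 with TCDD gave 11522 calls. A robust dispersion prior gave 197 and 500 calls at D1 and D2. Depth limits LHX2 (at most 8 counts), LHX1 and, at D2, SIX6.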
